A study of Mus musculus with 14 samples.

Results

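The difference between 2 genotype effects was examined: Ts1Cje minus WT in the extensor digitorum longus (EDL), minus Ts1Cje minus WT in the soleus. It is called the interaction here, and a value above 0 means that the difference between Ts1Cje and WT was more positive in the EDL than in the soleus. The contrast needs all 4 groups, so its members were all 14 of the 14 arrays, chosen by the muscle and genotype in the labels. The groups were EDL of WT mice (3 arrays), EDL of Ts1Cje mice (3 arrays), soleus of WT mice (4 arrays) and soleus of Ts1Cje mice (4 arrays), all labelled as C57BL/6 background. WT animals were disomic littermates of the Ts1Cje mice, a model of Down syndrome in which the distal part of chromosome 16 is present in an extra copy. Gene expression was measured with 1 Agilent 1-colour array per sample. Age, sex and whether an EDL and a soleus came from the same animal are not given in the sources used here, so the p-values measure the spread between these samples.

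Skeletal muscle is built of fibres that differ in the myosin heavy chain they carry, in how they handle calcium and in how they make ATP. The mouse EDL consists mainly of fast fibres with the myosins Myh4 (type IIB) and Myh1 (type IIX), whereas the soleus consists mainly of slow fibres with Myh7 (type I) and fast oxidative fibres with Myh2 (type IIA). In Down syndrome models each gene of the trisomic segment has an extra copy in every tissue, and genes elsewhere can differ as well.

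The fast fibre genes Myh4 and Pvalb had the interaction values that the results below turn on, so the sequences before their start sites are shown beside those of Myh1 and Myh2, the neighbours of Myh4 in the fast myosin cluster of chromosome 11. Each is the 250 bases upstream of the annotated start, 5′ to 3′, from RefSeq on the GRCm38.p6 build. Capitals mark matches to CANNTG, the E-box letters bound by myogenic factors, to the MEF2 motif and to TATAAA, each searched on both strands. Of 6 genes looked up by symbol, 5 were found.
Myh4 (chr11:67237562-67237811, plus strand): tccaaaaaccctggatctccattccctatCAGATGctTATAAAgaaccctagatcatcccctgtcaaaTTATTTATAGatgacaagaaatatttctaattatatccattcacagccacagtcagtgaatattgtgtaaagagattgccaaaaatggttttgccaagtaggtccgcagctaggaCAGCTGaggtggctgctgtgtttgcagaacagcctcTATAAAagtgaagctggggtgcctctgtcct
Myh1 (chr11:67199852-67200101, plus strand): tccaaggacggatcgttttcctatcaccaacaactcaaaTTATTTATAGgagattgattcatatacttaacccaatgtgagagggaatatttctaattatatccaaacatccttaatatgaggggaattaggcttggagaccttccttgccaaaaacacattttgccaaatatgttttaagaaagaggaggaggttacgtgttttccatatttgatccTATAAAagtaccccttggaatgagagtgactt
Myh2 (chr11:67170777-67171026, plus strand): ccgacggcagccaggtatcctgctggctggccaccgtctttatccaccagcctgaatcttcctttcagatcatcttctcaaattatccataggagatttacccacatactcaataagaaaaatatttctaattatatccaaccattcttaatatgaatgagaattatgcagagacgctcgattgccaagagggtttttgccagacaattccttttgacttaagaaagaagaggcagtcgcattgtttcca
Pvalb, first start site (chr15:78206401-78206650, minus strand): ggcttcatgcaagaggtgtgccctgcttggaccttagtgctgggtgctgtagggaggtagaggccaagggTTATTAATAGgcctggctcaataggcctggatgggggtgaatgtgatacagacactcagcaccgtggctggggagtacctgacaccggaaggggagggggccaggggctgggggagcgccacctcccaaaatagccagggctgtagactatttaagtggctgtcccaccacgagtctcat
The Myh4 sequence held 2 matches to CANNTG, starting 221 and 67 bases before the start, and the second of them reads CAGCTG. It also held a MEF2 match at 182, which overlaps a TATAAA match at 179, and further TATAAA matches at 213 and 31. The Myh1 sequence held a MEF2 match at 211, which overlaps a TATAAA match at 208, and a TATAAA match at 32. The Pvalb sequence held 1 MEF2 match at 180, and the Myh2 sequence held none of these motifs. The second start site of Pvalb (1 CANNTG match at 111) and the start site of Mybpc2 (1 at 157) held no MEF2 match and are not shown. Over 32851 promoters of the same length, 66.2% held CANNTG, 13% CAGCTG, 12.4% TATAAA and 2.92% the MEF2 motif, so the MEF2 match was the least common of the features shown. A match is a description of letters in this window and not a site of binding.

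All values below are log2 intensities relative to the 75th percentile of their own array, so 0 is the level of that percentile. The share of probes well above background ranged from 41.3% to 52.9%, and arrays of 1 group correlated at 0.979 to 0.988 across genes. The number of arrays limits the precision. The labelled muscles matched their defining genes: every EDL array read higher than every soleus array for Myh4 and lower for Myh7. All 6 EDL arrays shared slide 1 with replicate 1 of the Ts1Cje soleus, and the remaining 7 soleus samples were on slide 2. Each EDL genotype effect was therefore taken within 1 slide, and slide and muscle cannot be told apart except through that 1 soleus array. With the slide as a block, the interaction was 4.29 for Myh4 and 1.81 for Pvalb, and 0 genes were called.

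No gene passed the test of the interaction. With limma and Benjamini-Hochberg adjustment over 14164 genes, 0 were called at an adjusted p under 0.05, a background of 0%, and the smallest adjusted p was 0.687 (Pvalb). At an unadjusted p under 0.05 there were 454 genes, of which 188 lay above 0 (1.33% of all genes) and 266 below 0 (1.88%). An even spread of p-values would have given 708.2. Same-numbered WT arrays of the EDL and soleus deviated together (r of 0.511, 0.408 and 0.328), and for Ts1Cje r was -0.089, -0.157 and 0.117. With the number as a random block across the muscles, 857 genes had an unadjusted p under 0.05 (both genotypes) or 827 (WT only), and 0 were called. The same fit called 1 gene in the EDL (0.00706%) and 35 in the soleus (0.247%), which does not show that the muscles differ. The median SE of an interaction value was 0.24, and for 74.7% of genes the 95% interval lay within a log2 of 1 on both sides of 0. The median width of the interval on 1 side, before adjustment, was 0.51, and an estimate of 4.15 (Myh4) was not called after adjustment over all genes. The median interaction over all genes was -0.07 (interquartile range -0.20 to 0.10), and 38.1% of genes lay above 0. Values of gene groups are read against that median. The words rose and fell are kept below for the genotype effects that passed the test in 1 muscle, and interaction values are given as estimates.

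Several genes of fast fibres had interaction estimates well above 0. All 22 genes of the fast fibre list were measured. Of these, 21 lay above 0, beside 38.1% of all genes, and 1 below, with a median of 0.16 (interquartile range 0.11 to 0.51). At an unadjusted p under 0.05 in limma, 5 of the 22 lay above 0 (Myh4, Pvalb, Actn3, Mybpc2 and Prkag3) and 0 below. Over all genes the shares were 1.33% above and 1.88% below. In the EDL the median genotype effect of the list was 0.04 and the groups overlapped for all 22, where 2.82% of all genes had Ts1Cje above WT and 2.77% below on every array. In the soleus the median was -0.15, and 3 of the 22 fell (Myh4, Pvalb and Actn3), beside 0.0706% of all genes. In bulk tissue, fewer fibres of a type and less RNA per fibre cannot be told apart.

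Myh4 encodes the myosin heavy chain of type IIB fibres, the fastest of the mouse limb. In the EDL it read 11.60, 11.93 and 11.25 in WT and 11.79, 11.84 and 11.25 in Ts1Cje. In the soleus it read 9.67, 9.26, 9.83 and 8.79 in WT, and 5.69, 7.07, 4.42 and 3.88 in Ts1Cje. The EDL groups coincided, whereas every soleus Ts1Cje array lay below every soleus WT array, with replicate 2 the highest of the 4 Ts1Cje arrays. Myh4 fell in the soleus by 4.12 ± 0.53 (SE) on the log2 scale, or 17.4-fold, with an adjusted p of 0.00642 in limma. In the EDL the change was 0.03 ± 0.62, with a 95% interval of -1.30 to 1.37. The interaction was 4.15 ± 0.82 (95% interval 2.39 to 5.92), with an unadjusted p of 2.16e-04 and an adjusted p of 0.898 in limma. Put the other way, EDL exceeded soleus by 2.21 in WT and by 6.36 in Ts1Cje. Without soleus Ts1Cje replicate 2 the interaction of Myh4 was 4.75 and was called, with an adjusted p of 0.0316, the 1 call of the interaction in any fit that left out an array.

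Pvalb encodes parvalbumin, the cytosolic calcium buffer that speeds relaxation of fast fibres. It read 11.78, 12.16 and 11.43 in WT and 11.99, 11.94 and 11.52 in Ts1Cje EDL. In the soleus it read 8.58, 8.57, 8.93 and 8.004 in WT, and 6.42, 6.59, 6.93 and 6.72 in Ts1Cje. The EDL groups overlapped and the soleus groups did not. Pvalb fell in the soleus by 1.86 ± 0.21, or 3.63-fold (adjusted p 0.00317, limma), beside 0.03 ± 0.24 in the EDL. Its interaction of 1.89 ± 0.32 (95% interval 1.21 to 2.57) had the smallest p of all genes, 4.85e-05 before adjustment. A second probe of the gene gave 1.86.

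Actn3 encodes the alpha-actinin of the fast fibre Z-disc. It read 9.36, 9.72 and 9.13 in WT and 9.60, 9.63 and 9.53 in Ts1Cje EDL. The soleus values were 6.39, 6.10, 6.45 and 5.13 in WT, and 3.54, 3.93, 4.56 and 4.25 in Ts1Cje. Again the soleus groups stood apart and the EDL groups did not. Actn3 fell in the soleus by 1.95 ± 0.28 (adjusted p 0.0131, limma), and its interaction was 2.13 ± 0.42 (95% interval 1.21 to 3.05, adjusted p 0.898). The soleus call of Actn3 was lost without soleus WT replicate 1 (adjusted p 0.0574), without soleus Ts1Cje replicate 2 (0.0614), without the filter on dim probes (0.0525) and with a replicate block within each muscle (0.119). The soleus calls of Myh4 and Pvalb held in all 14 settings and in all 14 fits without 1 array.

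Mybpc2, the fast myosin-binding protein C, followed the same pattern below the threshold. In the EDL it read 8.83, 9.44 and 8.79 in WT and 9.16, 9.25 and 9.16 in Ts1Cje. In the soleus it read 5.78, 5.83, 6.01 and 4.72 in WT, and 3.29, 3.85, 4.55 and 4.48 in Ts1Cje. The soleus groups did not overlap, which makes 4 of the 22 fast fibre genes with Ts1Cje below WT on every soleus array, beside 2.29% of all genes. Its interaction was 1.71 ± 0.47 (unadjusted p 0.00326 in limma), and its soleus change of -1.54 had an adjusted p of 0.0836. Prkag3, the AMP kinase subunit of fast glycolytic fibres, had an interaction of 0.69 ± 0.30 (0.30 with normexp background correction) and a soleus change of -0.82.

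**Figure D1:**
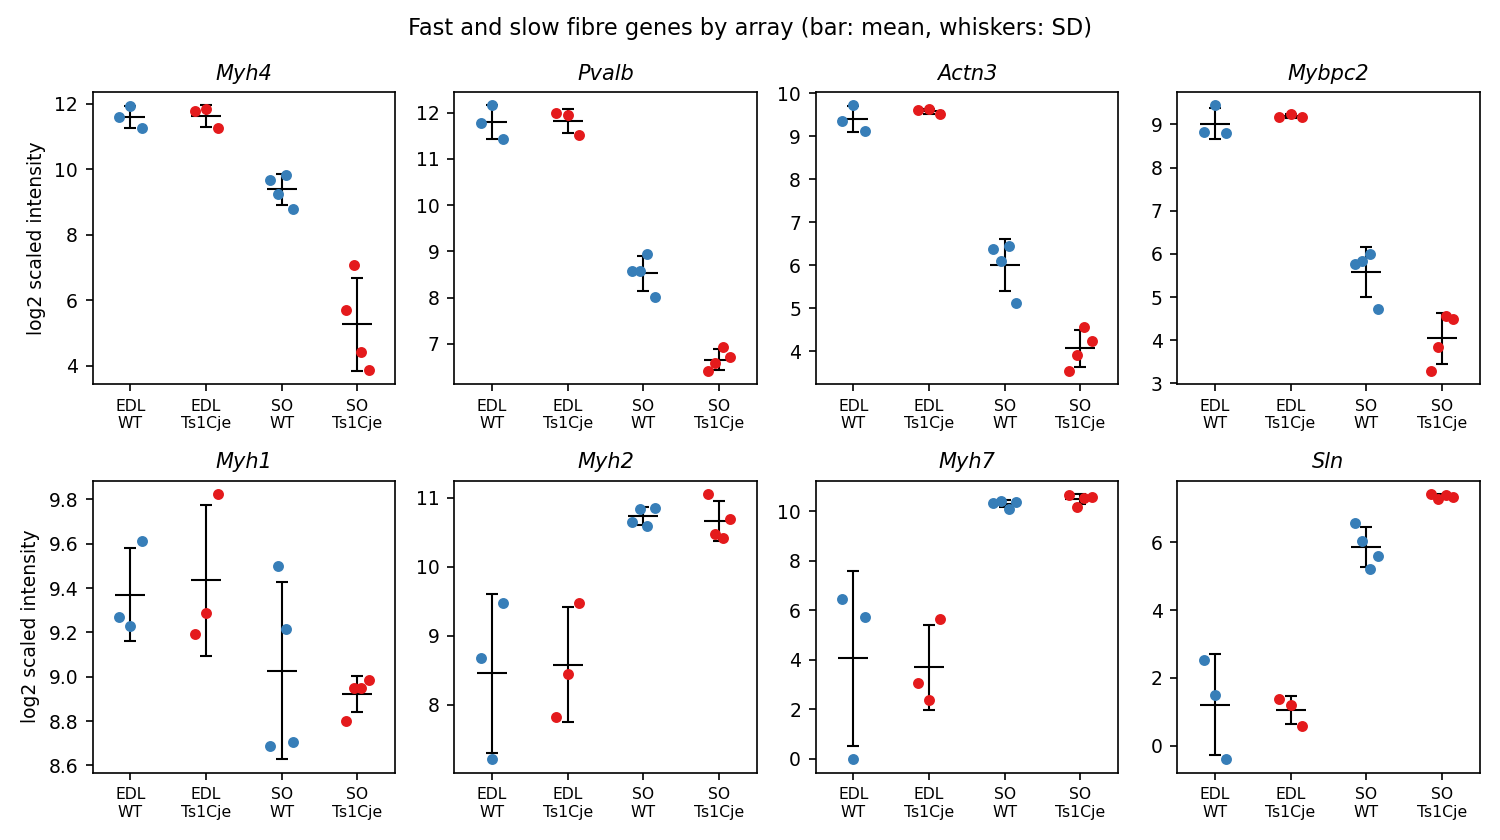
Log2 intensity relative to the 75th percentile of the array (vertical axis) of fibre genes on each of the 14 arrays, by muscle and genotype. Each point is 1 array, the bar is the mean of the group and the whiskers are the SD; the soleus Ts1Cje points of Myh4, Pvalb and Actn3 lie below all soleus WT points, and the EDL groups of these genes overlap.

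Other genes of fast fibres had smaller estimates. Myh1, the type IIX myosin, had an interaction of 0.17 ± 0.29, and Myh2, the type IIA myosin, one of 0.20 ± 0.64, which turned to -0.08 with array weights. Atp2a1, the fast calcium pump of the sarcoplasmic reticulum, changed by 0.00 in the EDL and by -0.57 in the soleus (interaction 0.57 ± 0.34), and Ckm, the muscle creatine kinase, had 0.33 ± 0.17. The troponins and light chains lay near 0, with Tnni2 at 0.14, Mylpf at 0.13, Tnnc2 at 0.11, Tpm1 at 0.06, Myl1 at 0.02 and Tnnt3 at -0.04. Of the members near 0, Tnnt3 turned above 0 with centred arrays, Tnnc2 and Tpm1 turned below 0 with quantile normalization, and Myl1 and Pfkm with normexp correction. Summed over the list, the soleus level was 13290 to 15340 times the percentile in WT and 11480 to 15050 in Ts1Cje, which overlap. The median log2 level of the list did not: it was 8.02 to 8.36 in WT and 6.75 to 7.06 in Ts1Cje soleus. That level depends on the order of members, and 2 called genes moved from above it to below it. The soleus group means went from 9.39 to 5.27 for Myh4 and from 8.52 to 6.66 for Pvalb. The median genotype effect of the members was -0.15, so the gap is not the change of a typical member. The myosin heavy chains are close copies of each other, and whether their probes tell them apart was not tested. The probe named Myh8, the perinatal myosin, read 11.83 to 12.40 in these EDL arrays and had an interaction of 0.25 ± 0.24. A second Myh8 probe was far dimmer, with a mean of 4.92 over all arrays against 11.63, and gave 0.43.

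Genes of slow fibres had estimates on the other side of 0 with wide errors. Of 19 listed genes 18 were measured; 16 lay below 0 and 2 above (Csrp3 and Mybpc1), with a median interaction of -0.77 (interquartile range -0.94 to -0.27) and a median SE of 0.74. The median genotype effect was -0.29 in the EDL and 0.22 in the soleus, where all 18 measured members had an estimate above 0 and 0 were called. The fit took the error of each gene from the arrays of both muscles, so scatter between EDL arrays also widened soleus errors. For Myh7 the soleus SE was 1.11, although its soleus SDs were 0.15 (WT) and 0.21 (Ts1Cje). Its EDL SDs were 3.55 and 1.72. For genes with such EDL scatter, the absence of a soleus call cannot decide whether they changed in the soleus. In the soleus, 5 of the 18 had every Ts1Cje array above every WT array, beside 6.11% of all genes. At an unadjusted p under 0.05 there were 2 below 0, Sln and Myl6b, beside 1.88% of all genes. The median depended on single EDL arrays: it was -0.26 without EDL Ts1Cje replicate 2, -0.30 without EDL WT replicate 1, -0.39 without EDL WT replicate 3, -1.39 without EDL Ts1Cje replicate 3 and -1.4998 without EDL WT replicate 2.

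Sln encodes sarcolipin, an inhibitor of the sarcoplasmic calcium pump. It read 2.53, 1.49 and -0.41 in WT and 1.39, 1.19 and 0.58 in Ts1Cje EDL, and 6.57, 6.04, 5.22 and 5.59 in WT and 7.43, 7.28, 7.40 and 7.33 in Ts1Cje soleus. The soleus Ts1Cje arrays lay within a narrow range above all WT arrays, and the EDL groups overlapped. The soleus change was 1.505 (adjusted p 0.276, limma), the EDL change was -0.15, and the interaction was -1.65 ± 0.74, or -0.99 without EDL WT replicate 1. The soleus SE of 0.48 also carried the spread of the EDL arrays. The SDs were 1.49 (WT) and 0.42 (Ts1Cje) in the EDL, and 0.58 and 0.07 in the soleus. Myl6b, a slow myosin light chain, had an interaction of -1.07 ± 0.43 from -0.03 in the EDL and 1.04 in the soleus, where WT replicate 3 read 4.26 against 5.37 to 5.42 on the other WT arrays. Myh7 itself read 6.44, -0.02 and 5.74 in WT and 3.07, 2.37 and 5.65 in Ts1Cje EDL, a spread of more than 6 log2 units between replicates. In the soleus it lay between 10.08 and 10.66 on all 8 arrays. Its interaction of -0.54 ± 1.69 was therefore not measurable, and it turned to 0.65 without EDL WT replicate 1.

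**Figure D2:**
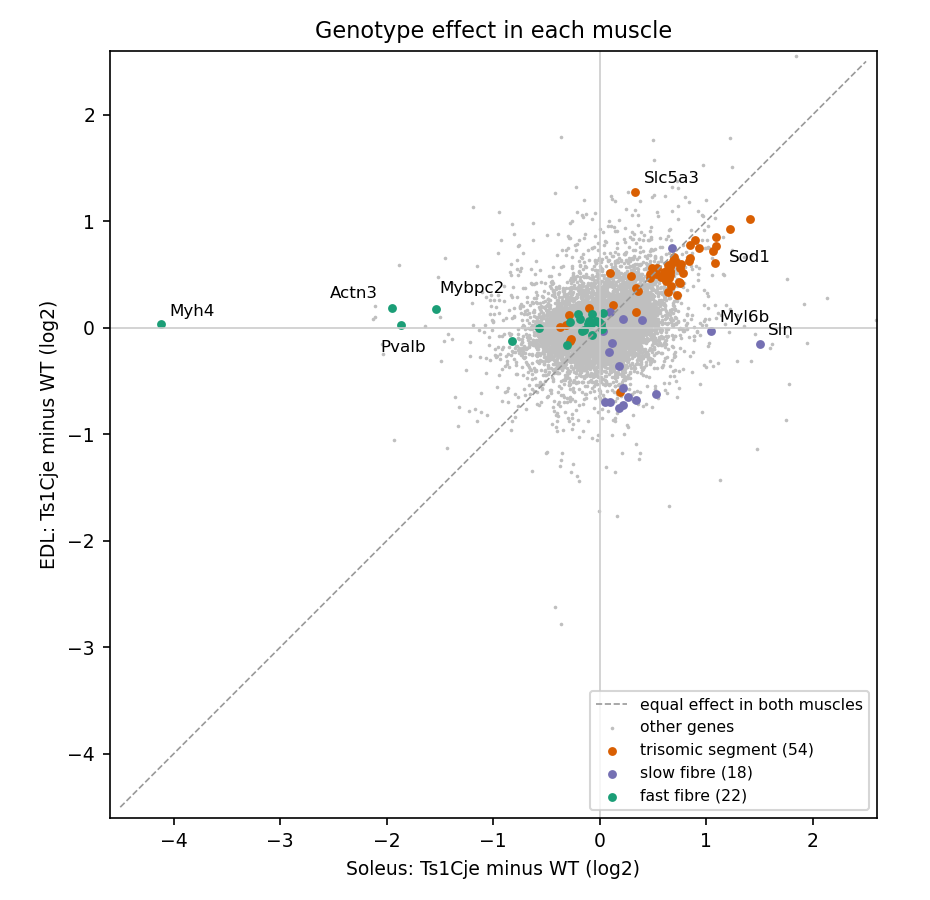
Genotype effect (Ts1Cje minus WT, log2) in the EDL (vertical axis) and in the soleus (horizontal axis), 1 point per gene, with the fast fibre, slow fibre and trisomic segment genes marked; Dnah11 lies outside the axes and is left out. Points off the line of equal effects have unequal estimates in the muscles, of which 0 passed the test of the difference: Myh4, Pvalb and Actn3 lie near 0 in the EDL and far below 0 in the soleus, and 47 of the 54 segment genes lie above 0 on both axes.

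Genes of the trisomic segment, which carry the extra copy, were mostly higher in Ts1Cje in both muscles, and their interaction lay near that of all genes. Of 69 listed genes 54 were measured and the others were not analysed here. The median genotype effect was 0.52 in the EDL (interquartile range 0.40 to 0.61) and 0.65 in the soleus (0.39 to 0.76), beside 0.585 for 3 copies over 2. The interaction had a median of -0.10, close to the -0.07 of all genes, with 14 members above 0 and 40 below. The groups did not overlap, with Ts1Cje higher, for 34 of the 54 in the EDL (background 2.82%) and for 37 in the soleus (6.11%), and 47 had an estimate above 0 in both muscles. Across the 54 genes the EDL and soleus effects had a Pearson r of 0.734, a description over genes that share arrays, beside 0.311 over all genes and 0.252 without Dnah11. For 44 of the 54 the 95% interval of the interaction lay within a log2 of 1 on both sides of 0.

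Sod1, the cytosolic superoxide dismutase at the proximal end of the segment, read 6.29, 6.41 and 6.27 in WT and 7.23, 6.98 and 7.32 in Ts1Cje EDL, and 5.67, 6.15, 5.92 and 5.77 in WT and 6.87, 6.94, 7.12 and 6.94 in Ts1Cje soleus. The genotypes stood apart in both muscles. Its change was 0.86 ± 0.14 in the EDL (adjusted p 0.0994) and a rise of 1.09 in the soleus (adjusted p 0.00317), with an interaction of -0.24 ± 0.18 in limma. Ts1Cje arose from targeting of Sod1, and a probe signal does not tell whether the transcript encodes active enzyme. Tmem50b, a membrane protein gene, had an interaction of -0.08 ± 0.15, from 0.78 in the EDL and 0.85 in the soleus. Son, a splicing factor gene, had -0.27 ± 0.13, and Morc3, a nuclear body ATPase gene, had -0.31 ± 0.14 (unadjusted p 0.044), the lowest p of the list.

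Dyrk1a, the kinase that phosphorylates NFAT and tau, had an interaction of -0.07 ± 0.31 from 0.82 in the EDL and 0.89 in the soleus. Rcan1, the calcineurin inhibitor, had -0.05 ± 0.49, which turned to 0.01 with centred arrays. Runx1, a transcription factor that responds to denervation in muscle, had -0.34 ± 0.26. Estimates of these regulators were thus too wide to place them on either side of 0. The estimates farthest from 0 belonged to Slc5a3, the inositol transporter gene (0.94 ± 0.67), and to Mrap, an accessory protein of the melanocortin receptor (-0.79 ± 0.70). Both intervals included 0. Without 1 array Slc5a3 ranged from 0.36 to 1.37 and Mrap from -1.14 to -0.25, and with normexp correction they were 0.30 and -0.26. Ripply3 had -0.39 ± 0.49 and Donson, a replication fork gene, -0.33 ± 0.34, each with estimates above 0 in both muscles. Lca5l (0.41 ± 0.18, unadjusted p 0.0449) was the 1 member above 0 at that level, but its second probe gave -0.09. Itsn1, an endocytic scaffold gene, showed 0.02 in the EDL and -0.32 in the soleus by its brightest probe, while its other 4 probes gave 0.43 to 0.70 and 0.42 to 0.63. App lies on chromosome 16 outside the segment and had -0.36 ± 0.20.

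**Figure D3:**
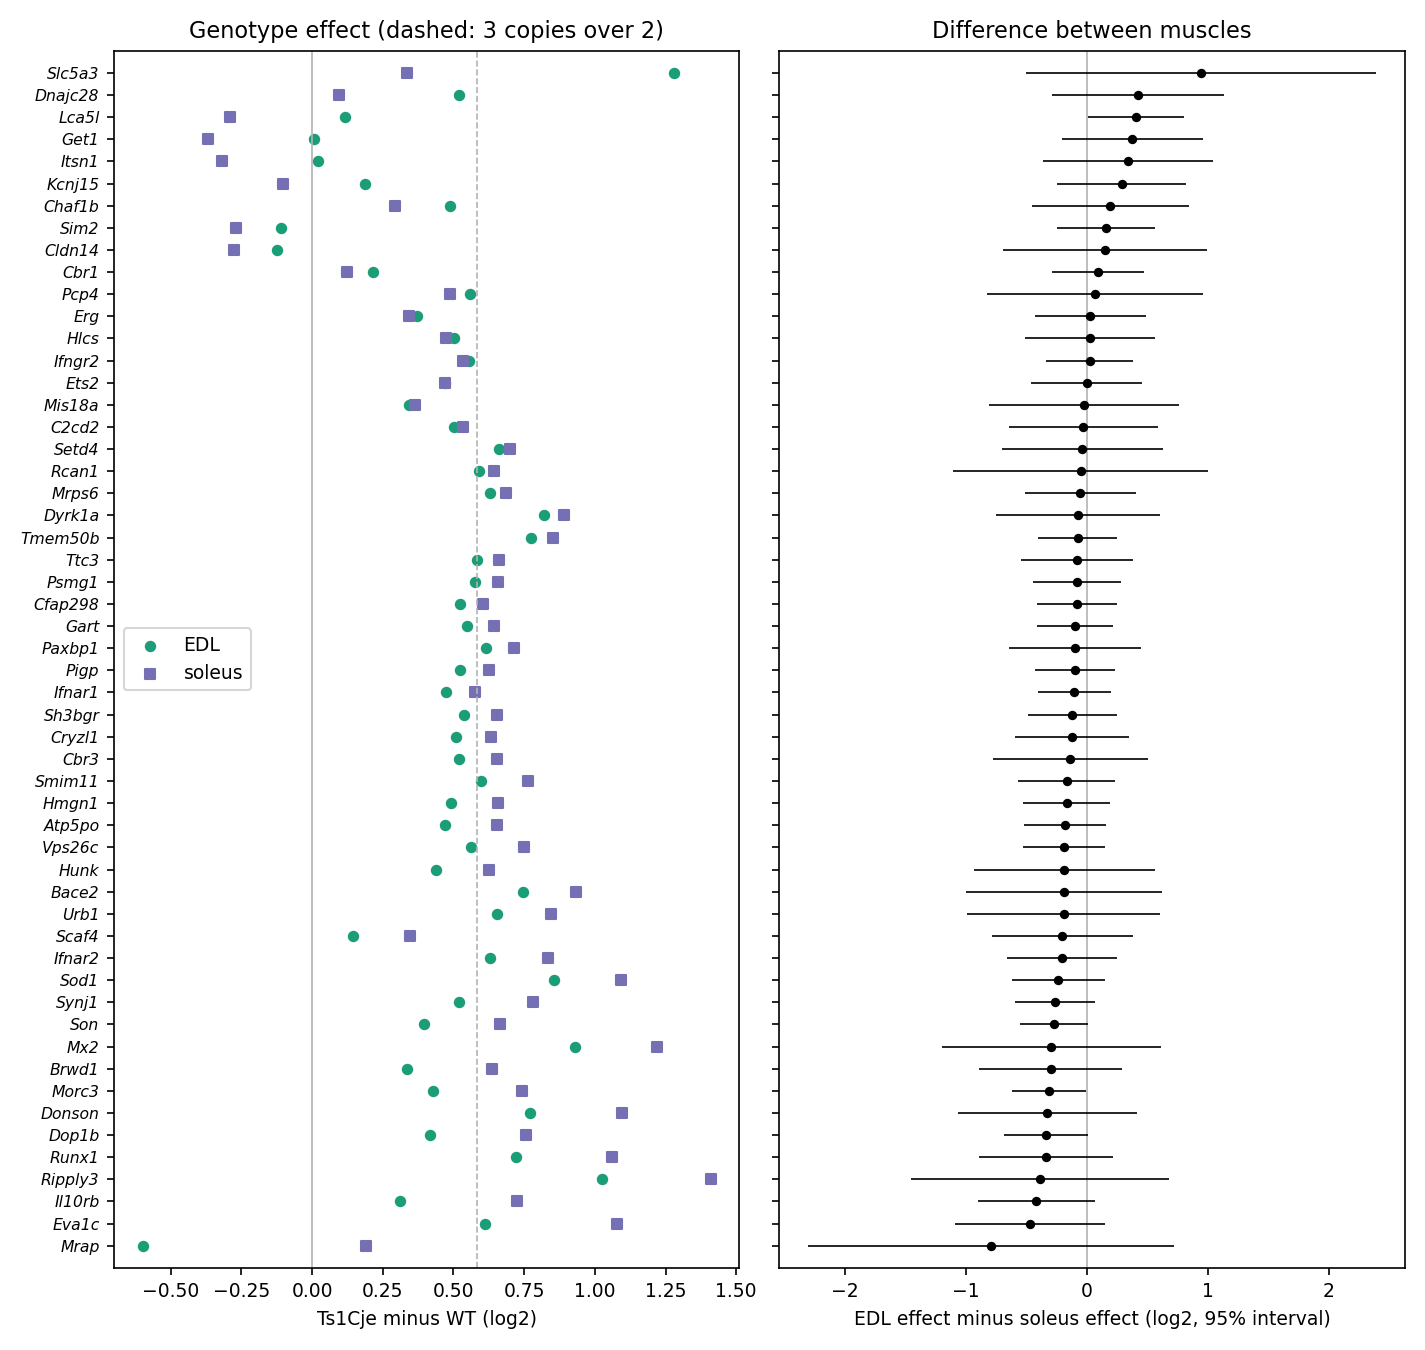
Left, genotype effect (log2) of each of the 54 measured trisomic segment genes in the EDL (circles) and in the soleus (squares), with the log2 of 3 over 2 as a dashed line. Right, the difference between muscles with its 95% interval; the intervals of all but Lca5l and Morc3 include 0.

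The genes called in the soleus fell into groups by their place in the genome. They were chosen by their soleus effect, which is a part of the interaction, so their EDL values are the new measurement. Of the 35, 20 had their probe within the segment (chromosome 16, mm9 build, probes from 90226509 to 98080864, a span that holds 65 of the measured genes). All 20 rose in the soleus, where 25 of all genes rose (0.177%), with log2 values of 0.58 to 1.09 and a median of 0.75. All 20 also had an EDL estimate above 0, from 0.40 to 0.86 with a median of 0.54. Of the 15 called genes elsewhere, 8 had an EDL estimate in the same direction as in the soleus. Their median size was 0.23 in the EDL and 1.02 in the soleus, a comparison that selection on the soleus favours. Of the 10 that fell in the soleus, 6 had an EDL estimate within 0.2 of 0: Myh4, Actn3, Pvalb, Tbata, Tlcd4 and Pla2g1b, named after their values were seen. Pla2g1b was dim, well above background on 1 of 4 soleus Ts1Cje arrays. Its interaction was 1.12, but as low as 0.30 in another setting, and its soleus call held in 9 of 14 fits without 1 array.

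Tbata, known from thymus and brain, read 2.80, 3.42 and 2.32 in WT and 3.09, 3.20 and 2.31 in Ts1Cje EDL, and 0.12, -0.11, 0.72 and -0.28 in WT and -1.80, -1.74, -1.61 and -0.97 in Ts1Cje soleus. By this probe its EDL groups overlapped and its soleus groups did not, and its interaction was 1.65 ± 0.45. Its other 2 probes gave 0.32 and 0.10, the mean of its 3 probes 0.69, and normexp correction 0.83. Tlcd4, a membrane protein gene, had 1.21 ± 0.34, or 0.46 with normexp correction. Their soleus calls were less firm, since Tbata was called in 4 and Tlcd4 in 1 of the 14 fits without 1 array. Ppp1r35, a centriole gene, went the other way: it read -0.94, -0.73 and -0.79 in WT and -0.95, -0.82 and -0.46 in Ts1Cje EDL, and -0.999, -0.82, -1.18 and -1.31 in WT and -0.38, 0.06, 0.17 and -0.07 in Ts1Cje soleus. Only its soleus groups stood apart. It rose in the soleus by 1.02 (adjusted p 0.0153, limma) and changed by 0.08 in the EDL, with an interaction of -0.94 ± 0.23 (-0.47 with normexp correction). That soleus call held in 9 of the 14 fits without 1 array.

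Dnah11, a dynein of motile cilia at the chromosome 12 breakpoint of the translocation, was the gene called in both muscles. It was not well above background on any of the 3 EDL or 4 soleus WT arrays. In Ts1Cje it read 3.76, 3.75 and 3.81 in the EDL and 4.29, 3.85, 4.58 and 3.78 in the soleus, which is at least 102.8-fold and at least 152.3-fold higher. Both folds are bounds against the lowest signal that was well above background, and so no interaction can be read from them.

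Other genes with a small unadjusted p owed their values to different patterns. Zcchc3, a nucleic acid sensor cofactor, read -2.11, -1.85 and -1.73 in WT and -3.14, -3.22 and -2.51 in Ts1Cje EDL, and changed by -0.03 in the soleus (interaction -1.03 ± 0.27). Csk, the kinase that restrains Src, changed by -0.64 in the EDL and 0.20 in the soleus (-0.84 ± 0.20). For both, the EDL groups stood apart and the soleus groups did not shift the same way. Xpo4, an exportin, had -0.79 ± 0.22 by 1 probe and -0.22 by its second. Uevld, with -0.26 in the EDL and 0.85 in the soleus, had an interaction of -1.12 ± 0.26 (adjusted p 0.988 in limma). Its p was the smallest of the genes below 0, leaving aside clone names such as those ending in Rik. All 4 read below the 75th percentile in the EDL, with Zcchc3 and Xpo4 well above background on 1 of 3 EDL Ts1Cje arrays. With normexp correction the interaction was -0.24 for Zcchc3, -0.35 for Csk, -0.12 for Xpo4 and -0.28 for Uevld. Several of the 10 genes of lowest p above 0, with clone names again left aside, were dim. Nabp1 (1.14 ± 0.23) was well above background on 1 of 3 EDL WT, 3 of 3 EDL Ts1Cje, 2 of 4 soleus WT and 1 of 4 soleus Ts1Cje arrays. Col9a1 (1.75 ± 0.39) was not well above background on any soleus array, and Npnt (1.80 ± 0.45) on no EDL WT array, so their interaction values have no measured base in that muscle. With normexp correction Nabp1 had 0.20, Col9a1 0.49 and Npnt 0.34.

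Metabolic groups lay close to the median of all genes. Genes of glycolysis and glycogen use, the fuel path of fast fibres, had a median interaction of 0.08, with 17 of 23 above 0. Pgk1 had 0.33 ± 0.15 (unadjusted p 0.0472), Ldha 0.35 ± 0.17 and Aldoa 0.36 ± 0.20. The oxidative groups lay on the other side: fatty acid use had a median of -0.19 (3 of 28 above 0), the respiratory chain -0.13 (5 of 43), the citric acid cycle -0.12 (4 of 21) and the mitochondrial ribosome -0.14 (5 of 32). No member of these 4 groups reached an unadjusted p of 0.05. Acadl, which starts the oxidation of long-chain fatty acids, had -0.43 ± 0.22. In the soleus the medians of these 4 groups were 0.14, 0.11, 0.09 and 0.12, beside 0.07 over all genes. With each array centred on its median gene, the median of all genes moved to -0.0048 and those of the 4 groups stayed below 0.

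Regulators of fibre type showed little. The 22 measured transcription factors of the fibre type list had a median of -0.02, and 0 passed an unadjusted p of 0.05. Among them, Eya4 had 0.49 ± 0.24, and Sox6, a repressor of slow fibre genes, 0.62 ± 0.41, each from a soleus estimate below 0 (-0.45 and -0.73) and an EDL estimate near 0, and with normexp correction they were 0.26 and 0.24. Calcineurin and NFAT genes, the pathway that drives slow fibre genes, had a median of -0.15 with 3 of 16 above 0. Of these, Cabin1, a calcineurin inhibitor, had -0.60 ± 0.24, or -0.36 with normexp correction. In the list for calcium release and storage, of median -0.12, Jph2, which joins the T-tubule to the calcium store, had 0.67 ± 0.30. The PGC-1 list had a median of -0.10, and Ppargc1a itself had -0.09 ± 0.53.

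Groups of antioxidant, stress and growth genes were placed in the same way. The 27 antioxidant genes had a median of -0.15, with Txn2, the mitochondrial thioredoxin, at -0.38 ± 0.16 (unadjusted p 0.0291), while its second, dimmer probe gave 0.01. Immediate early genes, which respond within minutes to handling or activity, had a median of 0.26 with 15 of 21 above 0 and 0 at an unadjusted p under 0.05, and the median was -0.04 without soleus WT replicate 4. Jun had 0.53 ± 0.31, or 0.21 without EDL WT replicate 2, and Socs3 -0.73 ± 0.46, or -0.42 without soleus Ts1Cje replicate 1. Neuromuscular junction genes had a median of -0.17, in which Ache, the esterase of the junction, had 0.79 ± 0.39, or 0.38 with normexp correction. The medians were -0.03 for atrophy genes, -0.04 for satellite cell genes, -0.10 for heat shock genes, -0.13 for the proteasome, -0.07 for the cytosolic ribosome and -0.09 for interferon-stimulated genes, of which 3 of the 6 turned sign in some setting or fit without 1 array.

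Collagen and interferon-stimulated genes had mostly estimates above 0 in each muscle. All 18 collagen genes, the main fibres of the matrix, were higher in Ts1Cje in each muscle by their estimates, with medians of 0.26 in the EDL and 0.27 in the soleus and an interaction of 0.03. Of the 42 interferon-stimulated genes, 35 in the EDL and 37 in the soleus had an estimate above 0, with medians of 0.18 and 0.36. The receptor genes Ifnar1, Ifnar2 and Il10rb lie in the segment, and Il10rb had an interaction of -0.42 ± 0.22. Over all genes, 7082 and 8887 of 14164 had an estimate above 0 in the EDL and the soleus, respectively. Apart from the red blood cell and adipocyte lists, given below, the remaining lists had median interactions between -0.15 (antigen presentation by MHC class I) and 0.13 (neutrophil genes).

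**Figure D4:**
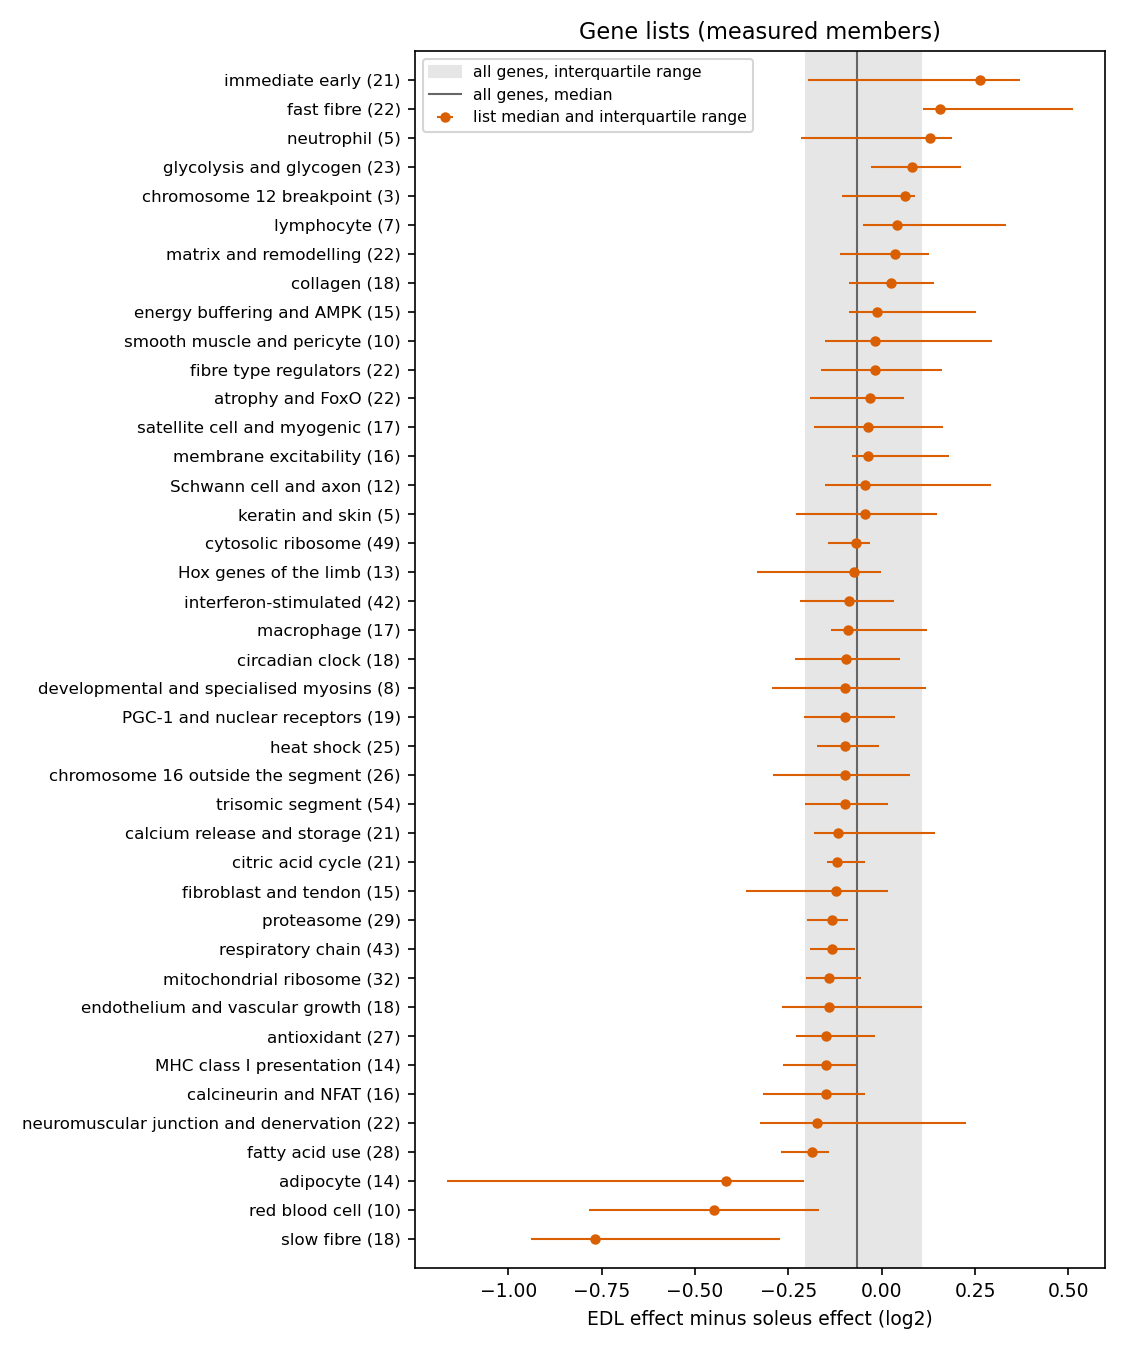
Median interaction (log2, horizontal axis) of each of the 41 gene lists, with bars for the interquartile range over members, the number measured in brackets, and the median and interquartile range of all genes as a line and a band. The slow fibre, red blood cell and adipocyte lists lie farthest below 0, and the immediate early and fast fibre lists farthest above.

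Summed levels of markers were compared for 10 lists of other cell types. They did not overlap between genotypes for 3 lists in the soleus (red blood cells, lymphocytes and neutrophils) and 1 in the EDL (smooth muscle). The median log2 levels of these same lists did overlap there, so the gaps in the sums are not gaps of a typical member. For red blood cells in the soleus the medians were 1.23 to 1.52 in WT and 1.48 to 1.56 in Ts1Cje. For smooth muscle in the EDL they were 2.51 to 2.85 and 2.82 to 3.08. Of all single genes, 6.11% had Ts1Cje above WT and 2.29% below on every soleus array. In the EDL the shares were 2.82% and 2.77%. The part of these lists in the results was not tested. Red blood cell genes had a median interaction of -0.45, with 9 of 10 below 0. Their summed level was 428.6 to 554 times the percentile in WT and 601.5 to 823.2 in Ts1Cje soleus, without overlap. In the EDL it was 404.6 to 1098 in WT and 310.8 to 736.5 in Ts1Cje. Hba-a1, a globin gene with a near-identical copy, had -0.90 ± 0.47, or -0.44 without EDL WT replicate 3. The 7 measured lymphocyte genes summed to 42.83 to 46.69 in WT and 37.95 to 41.07 in Ts1Cje soleus, and to 44.11 to 58.09 and 44.71 to 56.79 in the EDL. The 5 measured neutrophil genes, of 12 listed, summed to 13.45 to 19.08 in WT and 11.3 to 13.36 in Ts1Cje soleus. In the EDL they summed to 12.25 to 14.07 and 10.75 to 14.45. That sum was mostly the reading of Elane, at log2 3.42 to 3.99 in WT and 3.06 to 3.41 in Ts1Cje soleus. The list median was -0.38 to 0.13 in WT and -0.13 to 0.08 in Ts1Cje soleus. The 10 measured smooth muscle genes were the ones higher in Ts1Cje EDL, at 116.1 to 122.7 in WT and 131.9 to 181.7 in Ts1Cje, beside 95.12 to 140.1 and 131.6 to 160 in the soleus. Adipocyte genes had a median of -0.42 with 11 of 14 below 0, and their summed levels overlapped in both muscles: 204.5 to 464.6 and 230.4 to 839.6 in the EDL, and 488 to 747.8 and 589.5 to 724.2 in the soleus. That median was -0.05 without EDL WT replicate 3 and -0.82 without EDL WT replicate 2. The lists for macrophages, endothelium, smooth muscle, Schwann cells, fibroblasts and lymphocytes had medians between -0.14 and 0.04, with 0 members at an unadjusted p under 0.05.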

How the data were processed

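RNA of 14 muscles was labelled with Cy3 from 25 ng per sample, per the labels' protocols. The authors read the spots with Agilent Feature Extraction; the file headers give version 11.5.1.1, the submitters' processing notes 9.1, and which is right was not settled. The deposited scanner files give, per the file headers, processed intensity (background subtracted, not normalized between arrays), median intensity of spot and background, and marks of value 0 or 1 (other) for outlier, saturated and well above background spots. The authors' deposited table is in log2 relative to each array's 75th percentile; its values correlated with the recomputed ones at 1 after rounding.

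Controls (3671 of 62976 spots) were left out, spots of 55681 probes were averaged, and log2 processed intensity minus the log2 75th percentile of the array was used. A probe was kept where all arrays of 1 group or more marked it well above background (25183), and each gene took its brightest kept probe on average (14164 genes; 6674 kept probes had no symbol). Symbols were updated through RefSeq (2152 probes), and probe positions are those of mm9. A model of group means over the 14 arrays was fitted with limma 3.58.1 in R 4.3.3 (10 residual and 2.804 prior degrees of freedom). The two-sided p-values were adjusted by Benjamini-Hochberg over all genes and called at an adjusted p under 0.05; errors are SE and intervals are 95%. Where a group had no array well above background, the fold is a bound.

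The comparison and the 41 gene lists were chosen with earlier results of these data known. Lists are described by counts and medians, with no set test. The rule for named genes took the 10 smallest interaction p in each direction, passing over clone names (such as those ending in Rik or starting with Gm and digits). It also took the 2 smallest p of each list, 19 fixed genes and the 8 genes most like Myh4 over the soleus arrays. The whole rule gave 121 genes. The fibre list members, the soleus calls and 7 others (57 more genes) were added after their values were seen. Same-numbered EDL arrays deviated together (r of 0.40, 0.116 and 0.313). Whether the number stands for paired animals or for order of processing cannot be told from these values, and the main fit has no term for it. A block by number in the EDL alone, added after the data were seen, gave 0 interaction calls. It changed no other call count by over 1.5 times. Same-numbered WT arrays of the 2 muscles deviated together as well, but those of Ts1Cje did not. Random blocks across muscles (consensus correlation 0.228 in both genotypes, 0.515 in WT only), also added then, changed no call count by over 1.5 times. In Ts1Cje, r was 0.231 for EDL replicate 1 with soleus replicate 2, and 0.181 for EDL replicate 2 with soleus replicate 1. The block in both genotypes joined Ts1Cje arrays by number, so it cannot decide whether shared animals matter there. Alternatives were normexp, quantile and centred normalization, the deposited table, 2 filters, the mean of probes, every probe alone, array weights, trended robust variance, replicate and slide blocks, and leaving out each array.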

Additional observations from a re-analysis of the deposited data

Results flagged for a closer look

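In the soleus, 1 array stood apart from the other 3 of its group for 29 of 356 groups examined (8.15%; 178 named genes, 2 genotypes), by a gap wide enough to pass Dixon's 95% critical value for 4 samples. Chance marks about 1 in 20 such groups, and EDL groups of 3 arrays were not examined. Values are log2 levels relative to the 75th percentile of the array.

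The widest gap belonged to Mstn, which encodes myostatin, the growth inhibitor of muscle: soleus Ts1Cje replicate 1 read 6.67, while the other soleus Ts1Cje arrays read -2.77 to -3.41. That array was on slide 1 with the EDL arrays. Without it the interaction of Mstn turned from -1.86 to 0.58. Jun (4.85) and Dyrk1a (1.44) were lowest on the same array.

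Soleus Ts1Cje replicate 2, whose removal brought the 1 interaction call, was highest for Rcan1 (5.12), Cpa5 (-1.88) and Plekha5 (-1.44) and lowest for Tpm3 (8.13). Soleus Ts1Cje replicate 3 was lowest for A930006K02Rik (-1.67), Elane (3.06) and Gm5608 (-1.17) and highest for Gart (1.32). Soleus Ts1Cje replicate 4 was highest for Col9a1 (-4.12), which was not well above background there, and lowest for Cycs (7.58), Tbx4 (-0.0944) and Tnnt3 (9.98).

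Soleus WT replicate 1 had the most marks, 7 of the 29. It was lowest for Gart (0.43), Il10rb (-0.86), Mkx (-2.80) and Slc5a3 (-1.94), and highest for Elane (3.99), Synpo2 (1.84) and Zcchc3 (-1.27). Soleus WT replicate 2 was lowest for Col14a1 (0.61) and highest for Krt14 (-0.96). Soleus WT replicate 3 was lowest for Casq2 (3.87), Gm5608 (0.18) and Myl6b (4.26). Soleus WT replicate 4 was highest for Dnah11 (-3.53), below background, and lowest for Ogdh (7.49).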

How the results depend on the processing

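The interaction had 0 calls in all 14 other settings and with every probe alone. Without 1 array it had 0 to 1 calls, the 1 being Myh4 (4.75, adjusted p 0.0316 in limma) without soleus Ts1Cje replicate 2. Genes at an unadjusted p under 0.05 numbered 169 (normexp) to 977 (without EDL Ts1Cje replicate 3). The adjusted p of Pvalb came nearest at 0.0739 with quantile normalization and 0.0649 without soleus WT replicate 4, where Actn3 had the same value. With a random replicate block across muscles it was 0.355 (both genotypes) or 0.301 (WT only), and that of Myh4 0.396 or 0.301. Myh4 ranged from 3.69 to 4.75, Pvalb from 1.71 to 2.07 and Actn3 from 1.95 to 2.42 without 1 array.

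EDL calls (1) became 3 with quantile normalization, trended robust variance or every probe alone, 2 without the filter on dim probes and 0 when every array had to be above background, and were 1 to 3 without 1 array. Soleus calls (35) became 15 with normexp, 6 without the filter, 23 with the mean of probes, 18 with the slide block and 7 with the replicate block within each muscle, and were 10 to 38 without 1 array: leaving out Ts1Cje replicate 1, 2 or 3 left 18, 11 and 12 in that order, and leaving out WT replicate 1, 3 or 4 left 10, 16 and 17. The cause was not tested, except that the slide block is the fit without Ts1Cje replicate 1 by construction. Same-numbered soleus arrays did not deviate together (r of -0.123, -0.294, 0.009 and -0.135). Between WT and Ts1Cje soleus arrays of different numbers, r ranged from -0.172 to 0.429. The highest were WT replicate 1 with Ts1Cje replicate 2 (0.429) and WT replicate 2 with Ts1Cje replicate 3 (0.303). WT replicate 4 with Ts1Cje replicate 1 had 0.288, and what joins such arrays was not tested. The replicate block within each muscle joined soleus arrays by number, so it does not cover these pairings. It gave 0 interaction calls.

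Of the values of 178 genes, 2442 kept their sign in the other settings, and 23 in 17 genes did not, among them Dop1b at -0.34 ± 0.16. With normexp correction (offset 50) the sign turned for A930006K02Rik 0.0102, Csrp3 -0.0044, Mybpc1 -0.021, Myl1 -0.0304, Pfkm -0.044. With quantile normalization the sign turned for Mybpc1 -0.0014, Tnnc2 -0.006, Tpm1 -0.014. With the mean of the kept probes the sign turned for Dop1b 0.11, Gart 0.012, Ifnar1 0.051, Mybpc1 -0.021, Tpm1 -0.0011. With array weights the sign turned for Csrp3 -0.38, Myh2 -0.079. With the slide block the sign turned for Mstn 0.58, Mylk2 -0.012, Pfkm -0.027. With centred arrays the sign turned for Mb 0.0026, Rcan1 0.011, Tnnt3 0.024. With the random replicate block in WT only the sign turned for Ppargc1a 0.0049, Rcan1 0.056. Without 1 array, 62 values in 27 genes turned, with ranges of A930006K02Rik (-0.23 to 0.042), Myh7 (-2.58 to 0.65), Ppargc1a (-0.37 to 0.23), Ankrd2 (-0.78 to 0.27), Casq2 (-0.54 to 0.011), Mb (-0.37 to 0.17), Myl1 (-0.11 to 0.17), Pfkm (-0.056 to 0.048), Plekha5 (-0.022 to 0.25), Csrp3 (-0.95 to 0.64), Dyrk1a (-0.21 to 0.16), Myh2 (-0.42 to 0.71), Tmem50b (-0.14 to 0.0009), Tnnt3 (-0.12 to 0.098), Cpa5 (-0.032 to 0.53), Myl2 (-2.01 to 0.056), Rcan1 (-0.25 to 0.29), Sp4 (-0.003 to 0.25), Col14a1 (-0.49 to 0.005), Mybpc1 (-0.021 to 0.099), Mylpf (-0.087 to 0.33), Tnnc2 (-0.001 to 0.26), Tpm1 (-0.0056 to 0.16), Myh1 (-0.026 to 0.29), Mstn (-2.78 to 0.58), Mylk2 (-0.012 to 0.22), Fmod (-1.14 to 0.13). The red blood cell median was -0.29 with normexp and -0.56 to -0.27 without 1 array; the neutrophil median was -0.09 to 0.32 and that of the developmental myosins -0.27 to 0.37. Dim probes limit the genes near background, and 3 EDL arrays a genotype limit genes that vary between EDL arrays, such as those of slow fibres.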

Other observations

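The 8 genes whose soleus levels ran most like those of Myh4 over the 8 soleus arrays were Gstm3, Plekha5, E130308A19Rik, Vmn1r25, Ebf4, Scg5, Cpa5 and Dio1. The soleus arrays fall into the genotypes for Myh4, so this order follows the genotype difference and no coefficient is given. All 8 had an interaction estimate above 0, from 0.12 (Plekha5) to 1.15 (Dio1), but Plekha5 and Cpa5 turned below 0 without some EDL array. The choice favours such estimates, because it picks genes lower in Ts1Cje soleus and the soleus effect is subtracted in the interaction. Dio1, a thyroid hormone deiodinase, was not well above background in the EDL, so its interaction has no measured base there. Gstm3, a glutathione transferase, changed by -0.40 in the soleus and by -0.21 in the EDL.

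Of the 6674 kept probes without a symbol, 0 were called for the interaction in limma and 325 had an unadjusted p under 0.05.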
